A study of Neurospora crassa OR74A with 12 samples.

Results

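Subtelomeric genes of the filamentous fungus Neurospora crassa, the genes lying close to the ends of its 7 chromosomes, were followed in mycelium with and without the RNA decay factor UPF-1 and with and without hydrogen peroxide (H2O2). On each chromosome the smallest gene start and the largest gene end in the expression file were taken as the edges, and a gene was a member when it lay wholly within 75 kb of either edge. This gave 311 members of the 10685 genes in the file, against 10183 other genes on the same chromosomes. Distances below run from the outermost annotated gene and not from the telomere itself. The 14 chromosome ends held from 6 members (right end of chromosome I) to 30 members (right end of chromosome V).

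Subtelomeres of N. crassa are known for facultative heterochromatin, in which the Polycomb repressive complex, with its catalytic subunit SET-7, methylates histone H3 at lysine 27 and the genes beneath are held at low expression. Sirtuin deacetylases take part in the silencing of genes placed next to telomeres. UPF-1 is the RNA helicase at the centre of nonsense-mediated mRNA decay, the pathway that removes transcripts with premature stop codons and also some normal transcripts.

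Total RNA of mycelium, the branching vegetative hyphae, was sequenced in 12 libraries, 3 in each of 4 groups. The groups were wild type (WT), the upf-1 knockout (upf-1KO), and the same strains given 20 mM H2O2 (WT + H2O2 and upf-1KO + H2O2). The labels name the OR74A background for all groups. According to the study's methods, knockouts of this kind were made by replacing the gene with a hygromycin marker in a host carrying the bd mutation and an inactivated ku70 gene, and the exposure time to H2O2 is not given in the sources used here. The methods also name a wild type with bd, beside another wild type, and state that the strains used shared the bd background. Which wild type was sequenced is not given there. Nothing ties the replicates to separate transformants, so each knockout group stands for 1 strain as far as the labels go. P-values measure only the spread between libraries within groups, estimated over all 4 groups in 1 fit.

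The libraries held 5891672 to 7703271 counted reads. Reads of upf-1 numbered 622 to 748 in WT and 232 to 236 in upf-1KO, and 501 to 591 in WT + H2O2 and 257 to 375 in upf-1KO + H2O2, so the knockout libraries carried fewer reads of the targeted gene but were not at 0. The ku70 gene mus-51, whose product binds DNA ends, had 188 to 220 reads in WT and 67 to 107 in WT + H2O2, 0 in all 3 upf-1KO libraries and 0 to 4 in upf-1KO + H2O2. The knockout libraries therefore differed from WT in mus-51 as well as in upf-1, and effects of the 2 genes cannot be told apart in any comparison of strains here. Replicate 2 of upf-1KO + H2O2 stood apart from its group. In it 28 tested members were more than 3-fold above both other replicates and 1 more than 3-fold below, 12.1% of tested members and 11% of the other tested genes, against at most 5.02% of members in any other library. Of the general mycelium genes checked, 4 were matched, and none of them was called in either comparison of strains. Their summed normalised count was 175407 to 181808 in WT and 102620 to 114555 in upf-1KO, and 60295 to 71763 and 67333 to 83202 with H2O2, so without H2O2 it moved with the strain, and its part in the members' values was not tested.

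Of the 311 members, 294 were protein-coding, 10 encoded tRNAs, 3 rRNAs and 4 other non-coding RNAs. No read was counted for 18 of them, and 32, including those 18, stayed at 3 counts or fewer in every library. A further 40 exceeded 3 counts somewhere but did not pass the filter on low counts. The remaining 239, all coding except the non-coding RNA NCU14001, were tested. That filter keeps a gene that is high enough in about 1 group's worth of libraries, and 163 of the 239 met it in all 4 groups while 11 met it in only 1. Coding members were tested as often as coding genes elsewhere, 81.0% against 79.9%. Their median length was 1751 bases against 1969, and 74 of the members overlapped another gene. Reads of overlapping genes cannot be divided with certainty, because the use of strand in the counting is not given in the sources used here.

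In WT, subtelomeric coding genes were expressed at a median of 32.2 normalised counts per kb of gene length (quartiles 5.31 and 124), against 64.1 for the other coding genes. In upf-1KO the median of the members was 52.7 per kb and that of the other genes 63.0. With H2O2 the members stood at 29.4 per kb in WT and 46.8 in upf-1KO, and the other genes at 41.7 and 53.3. The library medians of the members did not overlap between the untreated strains, from 29.8 to 32.1 in WT and from 51.4 to 52.2 in upf-1KO. Those of the other genes did, from 62.8 to 64.7 and from 63.0 to 63.3. With H2O2 the library medians of the members were 27.6 to 30.0 in WT and 38.5 to 53.3 in upf-1KO. The other genes likewise did not overlap then, with 39.9 to 41.7 and 43.6 to 59.8.

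**Figure D1:**
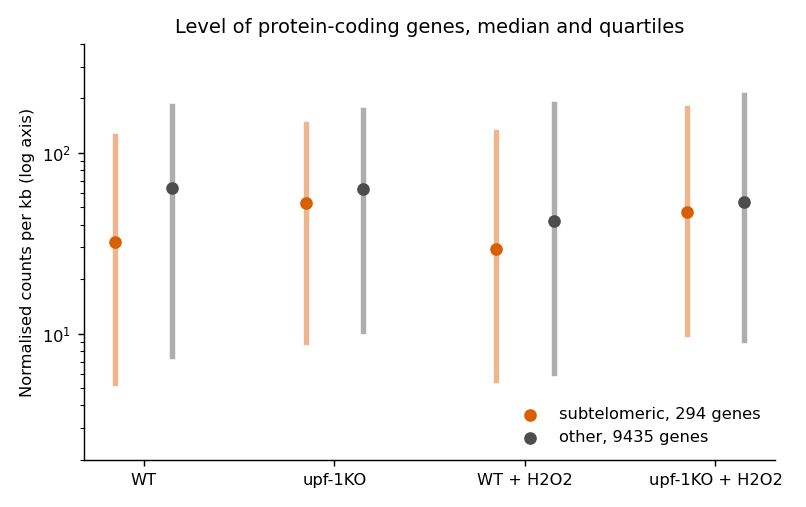
Level of protein-coding genes in each group, as normalised counts per kb of gene length on a log axis, with points for the median over genes of the group mean and bars for the quartiles. The subtelomeric median lies at 32.2 in WT and 52.7 in upf-1KO, while that of the other genes lies at 64.1 and 63.0.

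The level was not even along the 75 kb. In WT, coding genes within 25 kb of the edge had a median of 15.2 per kb, those from 25 to 50 kb 43.5, and those from 50 to 75 kb 59.3. Just beyond, from 75 to 150 kb, the median was again low at 20.1, and it was 16.5 from 150 to 300 kb and 69.1 farther in. The members took 2.49 to 2.62% of counted reads in WT, 2.37 to 2.39% in upf-1KO, 2.86 to 3.77% in WT + H2O2 and 2.78 to 2.89% in upf-1KO + H2O2. The 5 highest per kb were aac, which encodes the mitochondrial ADP/ATP carrier, its neighbours NCU09476 and NCU09475, the chaperone gene hsp70-1 and NCU10028. In 11 of the 12 libraries aac held more reads than any other member, and in replicate 2 of upf-1KO + H2O2 hsp70-1 did. By itself aac took 0.632 to 0.755% of counted reads in WT, 0.419 to 0.436% in upf-1KO and 0.951 to 1.59% in WT + H2O2. In upf-1KO + H2O2 it took 0.78% in replicate 1 and 0.714% in replicate 3. The members' share of reads therefore moved in part with this 1 gene and does not stand for the typical member.

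The first comparison asked which subtelomeric genes differed between upf-1KO and WT without H2O2. A gene was called when edgeR's quasi-likelihood test gave a Benjamini-Hochberg adjusted p under 0.05 over all 7878 genes tested and the fold change was at least 2; every adjusted p below comes from that test. Genes were named by a rule, which took up to 4 called members with the largest change in each direction, a mean of at least 50 normalised counts and no overlap between groups, the 5 highest levels, members with a symbol, the tested member nearest each end, and runs of 3 or more called neighbours. Of the 239 tested members, 50 were higher in upf-1KO and 5 lower. That is 20.9% and 2.09% of them, where 8.67% and 2.06% of all genes tested were called higher and lower, and 8.31% and 2.06% of the other genes on the chromosomes. The median log2 fold change was 0.20 over members and -0.13 over the other genes. No test of the members as a list was made. Scaling by library totals alone gave 55 and 3 members, 23% and 1.26% of those tested, beside 10.5% and 1.27% of all genes. It moved the median of all genes from -0.13 to 0.07. With only genes of at least 10 counts in every library, 28 members were higher (17.3% of those tested) against 6.83% of all genes.

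**Figure D2:**
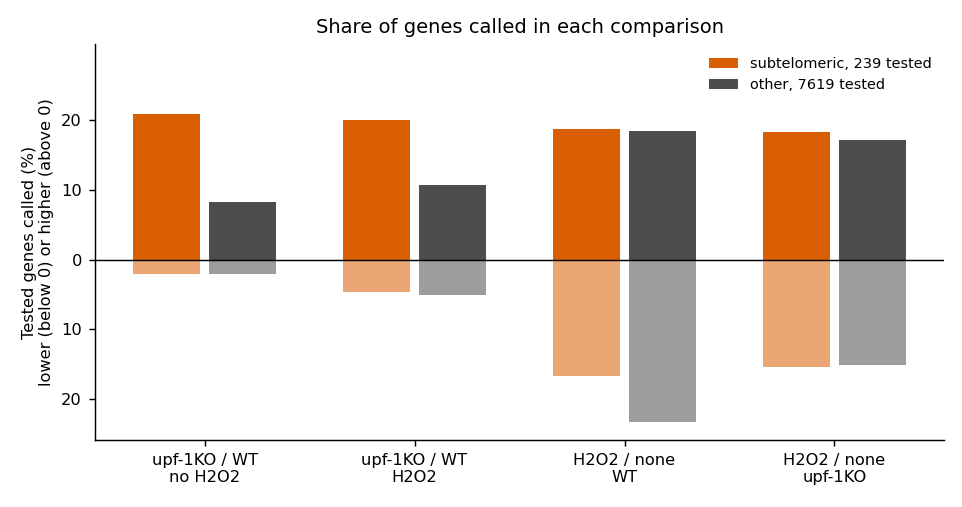
Share of tested genes called in each comparison, in percent, with higher calls above 0 and lower calls below, for subtelomeric genes and other genes on the same chromosomes. For upf-1KO against WT without H2O2, 20.9% of subtelomeric genes were higher against 8.31% of the others, whereas for H2O2 in WT the shares were 18.8% and 18.5%.

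The 50 higher members were, for the most part, weakly expressed genes in WT. Their median was 19.8 normalised counts per kb in WT and 64.6 in upf-1KO, and the fold changes of the 47 that were above 3 counts in some WT library ran from 2.0 to 18. The share called was above that of other genes at every level. When all tested genes were divided into 3 classes by level per kb, 31.2% of members in the low class were higher in upf-1KO against 12.6% of other genes, 17.7% against 8.03% in the middle class and 10.4% against 4.35% in the high class. Of the 50, 33 kept the call whichever of the 12 libraries was left out. In 9 of the 50 the gene overlapped another gene.

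Among the regulators, set-6 (NCU09495; chromosome II, 4468613 to 4470618 in assembly NC12, the outermost gene of the right end) encodes a protein with a SET domain, the catalytic fold of histone methyltransferases. Its normalised counts were 92.6, 44.6 and 99.1 in WT and 533, 570 and 564 in upf-1KO. With H2O2 they were 72.9, 90.1 and 62.8 in WT and 760, 386 and 650 in upf-1KO, so no knockout library overlapped a wild-type one in either condition. The log2 fold change was 2.82 ± 0.32 (SE, n = 3 and 3; edgeR adjusted p = 0.000132) without H2O2 and 3.0 ± 0.33 (edgeR adjusted p = 0.000163) with it.

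Several of the annotated genes encode enzymes or transporters. NCU08752, annotated as an acetylcholinesterase (chromosome III, 5265629 to 5268474), had 69.4, 59.2 and 69.2 normalised counts in WT against 514, 515 and 500 in upf-1KO, and 16.4 to 40.9 against 126 to 180 with H2O2. Within each untreated group its libraries lay close together, with a log2 fold change of 2.95 ± 0.27 (edgeR adjusted p = 3.34e-05). NCU12156, annotated as a sodium/proton antiporter, which moves Na+ out of the cell in exchange for protons (chromosome VI, 4156628 to 4157329), had 27.8, 26.9 and 31.6 in WT and 182, 196 and 193 in upf-1KO. It fell to 7.39 to 19.6 in WT + H2O2 but stood at 95.2 to 163 in upf-1KO + H2O2, and the log2 fold change between strains was 2.72 ± 0.29 without H2O2 and 3.37 ± 0.34 with it (edgeR adjusted p = 8.63e-05 and 8.29e-05). The fall in WT was lost without replicate 2 or replicate 3 of WT + H2O2.

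The gene cat-4 (NCU05169; chromosome IV, 5891781 to 5894885) encodes a catalase, an enzyme that breaks down H2O2. It had 69.4, 88.4 and 103 normalised counts in WT and 434, 469 and 417 in upf-1KO, a log2 fold change of 2.34 ± 0.35 (edgeR adjusted p = 0.000838). H2O2 itself gave no call in either strain, with 46.2, 115 and 135 in WT + H2O2 and 318, 161 and 248 in upf-1KO + H2O2. Under library totals alone cat-4 was called lower with H2O2 in both, by 1.08 in WT and 1.63 in upf-1KO. The strain difference with H2O2, 1.30 ± 0.36 (edgeR adjusted p = 0.0196), was lost without replicate 1 or 2 of WT + H2O2 or replicate 1 of upf-1KO + H2O2, down to 0.86.

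Of the other symbol-bearing genes, ci-1 (NCU05001; chromosome VI, 4125928 to 4127851) stood at 233 to 297 in WT and 848 to 936 in upf-1KO, and at 257 to 371 and 741 to 1242 with H2O2. These gave log2 fold changes of 1.74 ± 0.21 and 1.67 ± 0.21, nearly the same size in both conditions (edgeR adjusted p = 0.000177 and 0.000333). The glycoside hydrolase gene gh13-3 rose from 25.5 to 43.6 in WT to 135 to 181 in upf-1KO, by 2.24 ± 0.30 on the log2 scale (edgeR adjusted p = 0.000349). It was also higher with H2O2, by 1.32 ± 0.31, a call lost without replicate 2 of WT + H2O2. With con-6, described below, these 5 were the only members with a symbol among the 50.

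NCU09641, a gene with no annotated role, rose from 17.9 to 23.1 normalised counts in WT to 147 to 185 in upf-1KO, by 3.03 ± 0.36 (edgeR adjusted p = 0.000159). Some of the raised genes were all but absent in WT, and 2 of these, NCU05005 and NCU09630, were picked after their values were seen. NCU05005, annotated as a protein with an HHE domain, a fold that binds oxygen or iron in other organisms (chromosome VI, 4115923 to 4117080), had at most 2 reads in a WT library and 53.6 to 71.6 normalised counts in upf-1KO, at least 26.0-fold higher against a floor of 3 counts per library. In WT + H2O2 it was present at 5.46 to 14.2, and in upf-1KO + H2O2 at 58.5 to 79.3. Likewise NCU09630 was at least 4.53-fold higher and NCU09634 at least 3.79-fold, although the call on NCU09634 was lost without replicate 2 or 3 of WT or replicate 2 of upf-1KO. The median log2 fold change of the 50 was 1.74 with these 3 at their fitted values or at their bounds, which all lie above it.

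Annotated products of the other raised genes included further enzymes of small-molecule and sugar metabolism, here picked by annotation after their values were seen unless the rule named them. Those whose call held whichever library was left out were NCU08771 (acetolactate synthase, which makes precursors of branched-chain amino acids; log2 1.24), NCU09611 (fructosamine 3-kinase; 1.47), NCU09904 (glucan 1,3-beta-glucosidase; 2.36), NCU05885 (flavin-binding monooxygenase; 2.70), NCU05887 (oxidoreductase; 3.06) and NCU04994 (leucine aminopeptidase; 1.27). NCU12150, annotated as a ywbE protein, rose by 2.05 and NCU09913, a major royal jelly protein homologue, by 1.82, also in every such fit. The amino-acid permease gene NCU07129 rose by 1.56 ± 0.34, a call lost without replicate 2 of WT. The 6-phosphogluconolactonase gene NCU07143 rose by 1.32 ± 0.34, and this was lost without any 1 of the 6 untreated libraries.

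**Figure D3:**
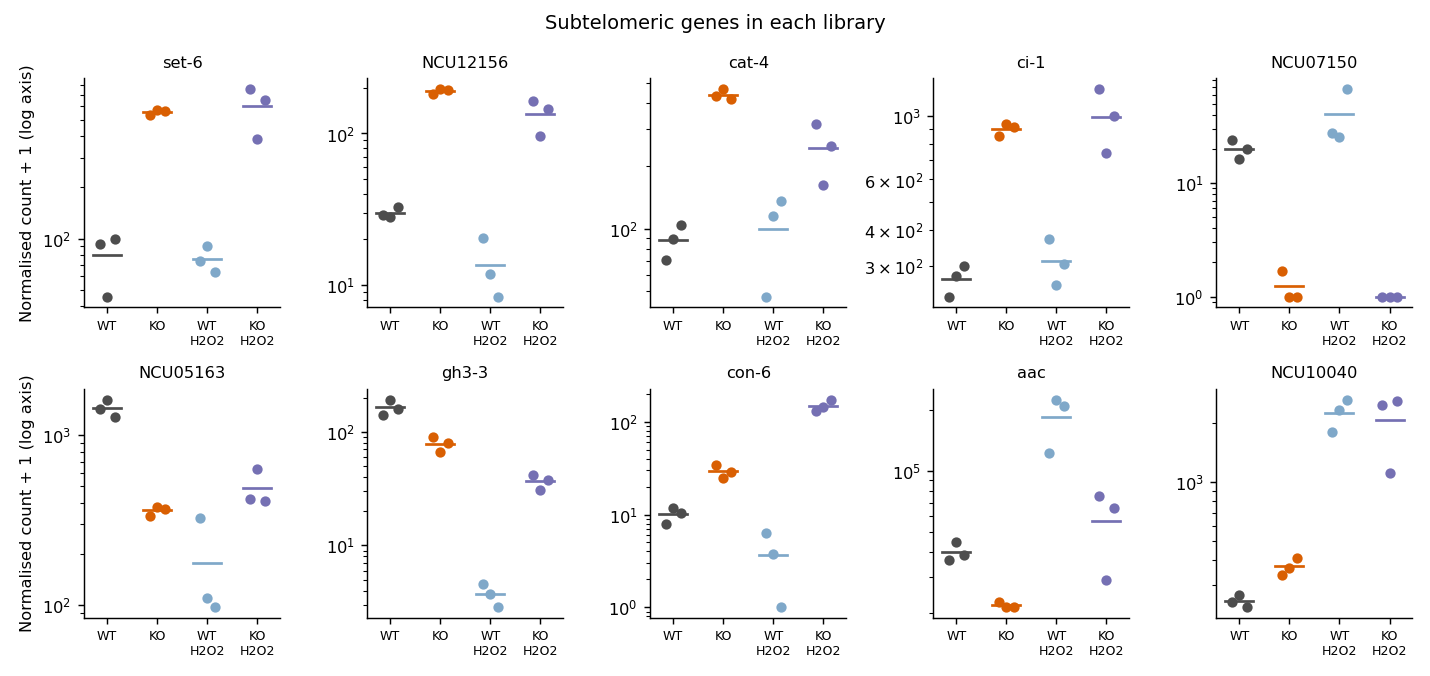
Normalised counts plus 1, on a log axis, of 10 subtelomeric genes in each library, with points for libraries and lines for group means. set-6, NCU12156, cat-4 and ci-1 are higher in the untreated knockout than in WT, NCU07150 is near 0 in the knockout, and gh3-3 falls in WT but much less in upf-1KO with H2O2.

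Only 5 members were lower in upf-1KO. NCU05163 (chromosome IV, 5905743 to 5906842) had 1417, 1620 and 1275 normalised counts in WT and 336, 379 and 365 in upf-1KO, a fall of 2.0 on the log2 scale (edgeR adjusted p = 0.00343). NCU17055 fell by 1.5 and NCU07159 by 1.15, the latter lost without replicate 3 of WT, where it fell by 0.99, and under library totals alone (-0.95). The glycoside hydrolase gene gh3-3 had 140 to 191 in WT and 64.8 to 89.0 in upf-1KO. Its fall of 1.07 lay just past the 2-fold limit and was lost when any 1 of 7 libraries was left out (replicate 2 of WT, replicate 2 of upf-1KO, any of WT + H2O2, and replicates 1 and 3 of upf-1KO + H2O2), down to 0.93, and under library totals alone (-0.87).

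The fifth, NCU07150 (chromosome V, 6414593 to 6416401), was chosen for description after its values were seen. It was present at 15.4 to 23.1 normalised counts in WT and 24.6 to 66.5 in WT + H2O2, but 5 of the 6 knockout libraries held no read and the other 1 read. It was at least 8.94-fold lower in upf-1KO and at least 10.9-fold lower with H2O2, against the floor of 3 counts per library. No member, and none of the other genes, met the fuller rule of at most 3 counts in all 6 libraries of a strain and 20 or more counts in all 6 of the other.

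Distance from the edge went with the share of raised genes. Within 25 kb, 22 of 73 tested genes (30.1%) were higher in upf-1KO, with a median log2 fold change of 0.55. From 25 to 50 kb the share was 14 of 80 (17.5%) and from 50 to 75 kb 14 of 86 (16.3%). The fall did not stop at the 75 kb limit, since 32 of 186 genes (17.2%) were higher from 75 to 150 kb, 10.5% from 150 to 300 kb and 7.96% farther in. Medians in those bins were 0.11, 0.04, 0.12, -0.05 and -0.14. Just inside the limit NCU07121, at 74.7 kb, had a log2 fold change of -0.33, and just outside it NCU07170, at 75.3 kb, had -0.22, neither of them called.

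**Figure D4:**
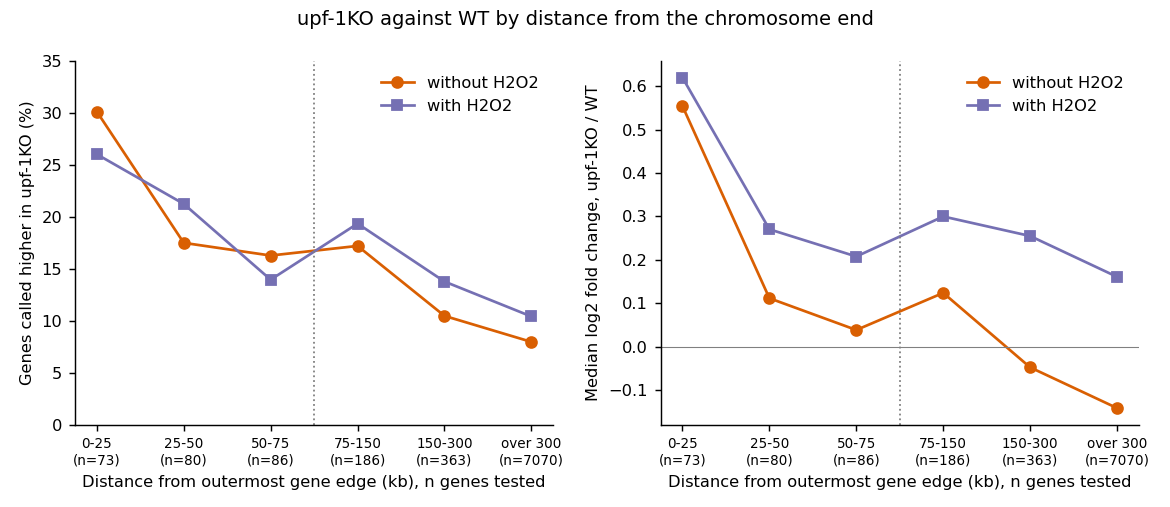
Share of tested genes called higher in upf-1KO (left, percent) and median log2 fold change of upf-1KO over WT (right) by distance from the outermost gene edge in kb, without and with H2O2, with the dotted line at the 75 kb limit. Within 25 kb 30.1% of genes were higher without H2O2 and 26.0% with it, against 7.96% and 10.4% of genes over 300 kb away.

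The raised genes were spread over the ends. At 13 of the 14 ends the median log2 fold change of the members was above that of all genes, and 13 ends held at least 1 raised gene, the exception being the right end of chromosome I with its 6 tested genes. End medians ran from -0.20 (right end of II) to 1.01 (left end of I). Both ends of chromosome VI held 7 raised genes each of 20 tested, the left end of IV 6 of 18 and the left end of I 5 of 12. The left end of V held 1 of 14 and its right end 1 of 18. Of all genes tested, 8.67% were called higher and 2.06% lower. At the right end of VII all 3 raised genes, NCU05888, NCU05887 and NCU05885, lay 64.7 to 73.4 kb in. Of the tested members nearest to the 14 ends, which lay 1.32 to 20.5 kb from the edge, 7 were higher in upf-1KO and none lower. These were NCU10129, NCU09634, set-6, NCU09526, NCU11292, NCU10038 and NCU07143. Except for set-6 and NCU09526, each of these calls was lost when at least 1 untreated library was left out, all 6 in turn for NCU11292 and NCU07143.

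**Figure D5:**
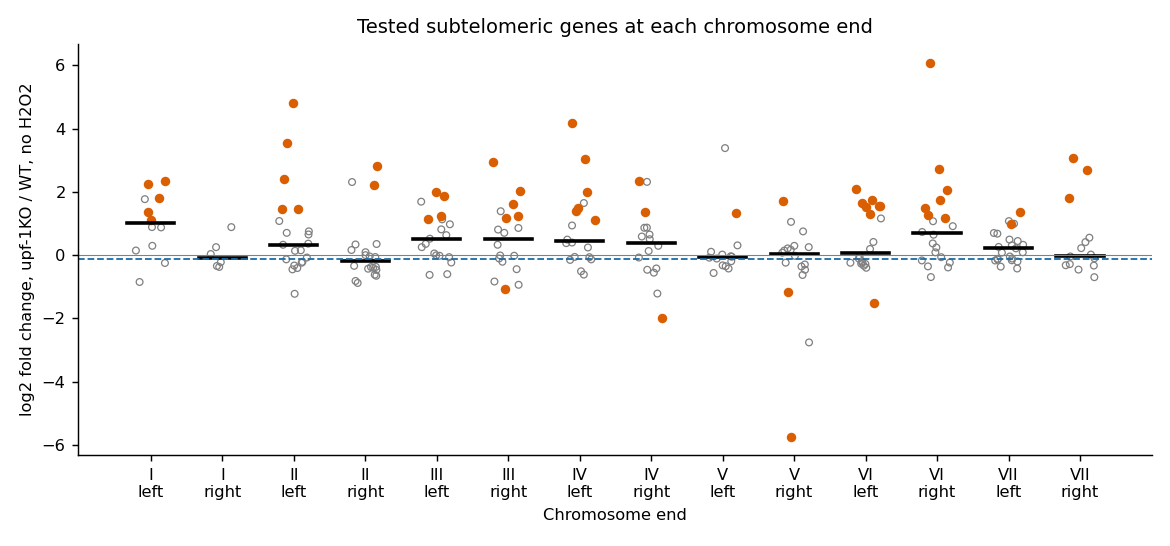
log2 fold change of upf-1KO over WT without H2O2 for every tested subtelomeric gene (points, filled where called) at each of the 14 chromosome ends, with black lines for the median of an end and the dashed line for the median of the other genes, -0.13. End medians lie between -0.20 and 1.01, and called genes are above 0 in all but 5 cases.

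Neighbouring genes were raised together at 2 places. NCU08771, NCU08770 and con-6 are consecutive at the right end of III, and NCU10537, NCU04994 and NCU12156 at the right end of VI, with log2 fold changes of 1.24 to 2.04 and 1.27 to 2.72. con-6 encodes a small protein made during conidiation, the formation of asexual spores, and overlaps another annotated gene. It had 6.95, 10.8 and 9.40 normalised counts in WT and 33.4, 23.6 and 27.8 in upf-1KO, a log2 fold change of 1.63 ± 0.37 (edgeR adjusted p = 0.011) lost without replicate 1 of WT or replicate 1 of upf-1KO.

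Since con-6 marks a developmental stage, the whole conidiation list was read beside it. Of its 10 tested genes, con-6 included, 4 were higher in upf-1KO and none lower, where 8.67% and 2.06% of all genes tested were called. Others had negative values that were not called: acon-3 -1.35, acon-2 -0.56, eas -0.36 and fl -0.10. The summed normalised count of the 10 was 69525 to 83522 in WT and 61382 to 65696 in upf-1KO. Most of that sum was the hydrophobin gene eas, at a mean of 75641 in WT and 59029 in upf-1KO. With H2O2 the sum was 14281 to 15417 in WT and 81776 to 124660 in upf-1KO. In that comparison 2 of the genes were higher, con-6 and eas, where 11% of all genes tested were. The mean of eas was then 9742 in WT and 99072 in upf-1KO. In RNA from whole mycelium, fewer cells of a kind and less RNA per cell cannot be told apart, and the part of conidiation in the other members' values was not tested.

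Genes that act on telomeric and heterochromatic silencing were read from a list. Of the 6 sirtuin genes tested none was called in either comparison of strains, with medians of -0.36 without H2O2 and 0.18 with it. Of the 6 genes of H3K9 and DNA methylation none was called without H2O2 and only dim-2, the DNA methyltransferase gene, with it, lower by 1.30. For H3K27 methylation only set-7 was matched by name, at -0.23 without H2O2, not called. Of the 4 other chromatin and telomere genes matched, mus-51 alone was called, lower in both conditions.

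The same strains were compared under H2O2. Of the tested members 48 were higher in upf-1KO + H2O2 than in WT + H2O2 and 11 lower, 20.1% and 4.60%, where 11% and 5.26% of all genes were called. The comparison uses other libraries than the untreated one, but the same strains, and both comparisons stand in 1 fit. Scaling mattered here. With library totals alone in place of the trimmed-mean factors (TMM) 106 members were higher and 4 lower, beside 38.4% and 1% of all genes, the median of all genes moving from 0.17 to 0.91, and in a fit of these 2 groups alone 17 were higher and 2 lower, 7.83% and 0.922% of the members tested there beside 2.85% and 1.12% of all genes. With only genes of at least 10 counts in every library, 18 members were higher (11.1% of those tested) against 8.99% of all genes. The median log2 fold change, with the usual filter, was 0.32 over members and 0.17 over the other genes. By distance, 26.0% of genes within 25 kb were higher, then 21.3% and 14%, 19.4% from 75 to 150 kb and 10.4% beyond 300 kb.

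In both conditions 27 members were higher in upf-1KO, in 23 the call was made only without H2O2 and in 21 only with it. These were 11.3%, 9.62% and 8.79% of the tested members, where 4.57%, 4.10% and 6.47% of all genes tested showed the same pattern. Among genes raised without H2O2, those raised in both conditions were 27 of 50 members and 360 of 683 of all genes, a similar proportion. A difference between conditions was tested by the interaction, given below. The 50 members raised without H2O2 had a median log2 fold change of 1.28 with it, or 1.23 with the 4 whose WT + H2O2 libraries were all at 3 counts or fewer at their bounds, and 44 of the fitted values were above 0. Besides NCU12156 and con-6, the naming rule took NCU05887 and NCU09631. NCU05887 had 14.2, 2.73 and 1.85 normalised counts in WT + H2O2 and 177, 109 and 130 in upf-1KO + H2O2, a log2 fold change of 4.35 ± 0.52 (edgeR adjusted p = 0.00024). NCU09631, a gene with no annotated role 9.24 kb from the left edge of II, had 3.55, 24.6 and 11.1 against 143, 70.4 and 162, a difference of 3.36 ± 0.52 (edgeR adjusted p = 0.00117).

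con-6, also taken by the rule, had 5.33, 2.73 and 0 normalised counts in WT + H2O2 and 130, 143 and 173 in upf-1KO + H2O2. It was at least 23.4-fold higher in the knockout against the floor of 3 counts per library. Of the members lower in upf-1KO + H2O2, NCU07159 had 2234, 1610 and 1441 in WT + H2O2 and 349, 311 and 261 in upf-1KO + H2O2, a fall of 2.52 on the log2 scale (edgeR adjusted p = 6.52e-05). NCU05165 fell by 1.95 and overlaps another gene.

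Replicate 2 of upf-1KO + H2O2 carried several of these calls. Without it 48 members were higher and 13 lower, and 41 and 7 of them were shared with the full set. These were 19.8% and 5.35% of the members tested there, beside 9.63% and 6.23% of all genes. Among genes with a symbol, the calls on mus-41, a gene of post-replication DNA repair (1.66, and 0.45 without it), and on gh61-5, of the lytic polysaccharide monooxygenases (1.58, and 0.82), were lost. So was that on NCU09301 (1.94, and 0.47). These 3 calls were also lost without each single library of the other 3 groups, except replicate 2 of WT for NCU09301.

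The response to H2O2 in WT called 45 members higher and 40 lower, 18.8% and 16.7% of those tested, where 18.7% and 23.1% of all genes were called. Under library totals alone these were 16 and 129, 6.69% and 54.0% of the members beside 4.72% and 58.0% of all genes, and the median of all genes moved from -0.13 with TMM to -1.36. In upf-1KO the counts were 44 higher and 37 lower, 18.4% and 15.5%, beside 17.4% and 15.2% of all genes, and 14 and 77 under library totals alone (5.86% and 32.2%, beside 5.43% and 32.8% of all genes), which moved the median of all genes from 0.08 to -0.64. In both strains 31 members were higher and 20 lower, 13% and 8.37% beside 12.1% and 11.1% of all genes tested, while con-6 was called in opposite directions. Of the chromatin genes listed above, the sirtuin genes nst-3 and nst-4 and the H3K27 methyltransferase gene set-7 fell with H2O2 in both strains, by 2.92, 2.32 and 1.92 in WT and by 2.40, 2.27 and 1.35 in upf-1KO. Another sirtuin gene, nst-7, rose by 1.16 in upf-1KO and was not called in WT (0.36). In the H3K9 and DNA methylation list, dim-9 fell by 1.34 in WT and 1.31 in upf-1KO, while dim-5 rose by 1.49 and 1.28. There dim-2 fell by 1.87 in upf-1KO and was not called in WT (-0.92). The gene set-2 fell by 1.32 in WT and was not called in upf-1KO (-0.88). A rise called for mus-51 in upf-1KO rests on 0 to 4 reads per library. The part of these genes in the members' values was not tested. The comparisons of H2O2 share their untreated libraries with that of the strains.

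Of the genes raised by H2O2 in WT, NCU10572, annotated as a short-chain oxidoreductase, had 54.8, 53.1 and 43.6 normalised counts in WT and 1265, 338 and 506 in WT + H2O2. It overlaps another gene. The log2 fold change was 3.8 ± 0.42 in WT and 2.45 ± 0.39 in upf-1KO (edgeR adjusted p = 2.32e-05 and 0.000384). NCU10040 (chromosome IV, 5939000 to 5940994) had 230 to 265 in WT and 1800 to 2627 in WT + H2O2, and 338 to 410 and 1117 to 2592 in upf-1KO. Its increases were 3.19 ± 0.29 and 2.47 ± 0.28, with no overlap between treated and untreated libraries in either strain. NCU11292 rose by 3.59 and by 1.60, the latter lost under library totals alone (0.85), and NCU10129, the outermost gene of the left end of I, by 2.98 and 2.33.

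In upf-1KO the naming rule took the increases of NCU09604, NCU10641, the kinase gene stk-52 and NCU10028. Replicate 2 dominated for NCU09604, with 23.6, 328 and 16.9 normalised counts in upf-1KO + H2O2, and for stk-52, with 430, 5252 and 417. Without that library their increases were 2.46 and 1.01, still called, but DESeq2 called neither. NCU10641 had 2.04 to 5.34 in upf-1KO and 112 to 131 in upf-1KO + H2O2, all 3 treated libraries alike, and 5.13 to 9.26 against 43.7 to 85.0 in WT. Its log2 fold changes were 4.93 ± 0.39 and 3.0 ± 0.37 (edgeR adjusted p = 7.6e-06 and 4.88e-05). NCU10028, on the right end of I, rose by 2.69 in upf-1KO and 2.35 in WT, and both it and NCU10641 overlap another gene.

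The 3 subtelomeric genes with the highest levels per kb are neighbours at the right end of II. aac (chromosome II, 4405532 to 4407556) had 36646, 44702 and 38799 normalised counts in WT and 122320, 225280 and 209114 in WT + H2O2. In upf-1KO it had 21368 to 22592 untreated and 75188, 29116 and 66098 with H2O2, replicate 2 being the low one. It rose by 2.21 ± 0.36 and 1.38 ± 0.35, the latter lost without replicate 1 of upf-1KO + H2O2, where it was 0.99. Under library totals alone its increases were 0.95 and 0.59 and not called. Its neighbours NCU09476 and NCU09475 rose with it in both strains, by 2.81 and 2.38 in WT and by 2.04 and 1.68 in upf-1KO, and under library totals alone by 1.56 and 1.12 in WT, while NCU09475 was no longer called in upf-1KO (0.87). All 3, and NCU09478 on the other side, were lower in upf-1KO + H2O2 than in WT + H2O2, by 1.71 for aac, 1.20 for NCU09476, 1.34 for NCU09475 and 1.47 for NCU09478. Without replicate 2 of upf-1KO + H2O2 the falls of NCU09475 and NCU09476 were 0.99 and 0.85 and no longer called. They were also lost without replicate 2 of WT + H2O2, as were those of NCU09476 and NCU09478 without replicate 3 of WT + H2O2. Under library totals alone the fall of aac was 1.04 and still called, while those of NCU09475, NCU09476 and NCU09478 (-0.69, -0.55 and -0.83) were not.

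Of the other members with a symbol, hsp70-1, a cytosolic chaperone gene, had 14222 to 15156 in WT, 20426 to 26287 in WT + H2O2, 10481 to 11376 in upf-1KO and 26352 to 30001 in upf-1KO + H2O2. Its log2 fold change was 1.36 ± 0.17 in upf-1KO, which was called, and 0.62 ± 0.17 in WT, which was below the 2-fold limit. Under library totals alone these were 0.66 and -0.60, so the direction in WT turned and neither was called. nuo14, a subunit of respiratory complex I, rose by 1.22 in WT and by 1.16 in upf-1KO, the latter lost without replicate 1 or 3 of upf-1KO + H2O2. Another subunit, nuo21.3c, had -0.02 and 0.35 and was not called. acp-1 rose by 1.47 in WT and pcb-1 by 1.13 in WT and 1.28 in upf-1KO. For acp-1 the call in upf-1KO, 1.04, was lost without any 1 of 5 treated libraries (all but replicate 2 of upf-1KO + H2O2). Under library totals alone none of the calls on nuo14, acp-1 and pcb-1 held, with -0.04, 0.22 and -0.11 in WT, where nuo14 and pcb-1 turned direction, and 0.37, 0.27 and 0.55 in upf-1KO.

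The steepest fall with H2O2 in WT by the naming rule was that of gh3-3, from 140, 191 and 157 normalised counts to 3.56, 2.73 and 1.85, at least 25.6-fold against the floor of 3 counts per library. In upf-1KO the same gene went from 64.8 to 89.0 down to 29.8 to 40.7, a fall of 1.13 on the log2 scale. NCU05163 fell by 3.01 in WT. NCU09301 fell by 3.29 and NCU09482 by 2.70 in WT. In upf-1KO + H2O2 these 2 genes had 505 and 475 in replicate 2 against 90.5 or less in the other replicates. In upf-1KO the naming rule took the falls of NCU17155 (3.70), NCU07129 (2.78), NCU08763 (2.56) and NCU07123 (2.51), and NCU17155 fell as steeply in WT, by 3.93. NCU08763 overlaps another gene. cen-c fell by 1.03 in WT, a call lost without replicate 2 of WT, replicate 1 of WT + H2O2 or replicates 1 or 3 of upf-1KO + H2O2.

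Whether the response to H2O2 differed between strains was tested by the interaction of strain and treatment. It called 9 members higher in upf-1KO than in WT and 11 lower, 3.77% and 4.60%, where 3.4% and 2.56% of all genes were called. With DESeq2's size factors (RLE) in the same test these counts were 6 and 12, beside 2.26% and 3.30% of all genes, and with library totals alone 24 and 4, beside 11.6% and 1.05%. On the positive side the rule named gh3-3 and NCU05163. For gh3-3 the fitted difference of 4.71 (edgeR adjusted p = 0.000193) rests on WT + H2O2 libraries of at most 2 reads, and with that group at the floor of 3 counts per library it was 3.56. For con-6, called with a fitted 4.07 (edgeR adjusted p = 0.00662), WT + H2O2 held at most 3 reads per library and the difference with that group at the floor was 2.90. The largest fitted difference among the 9, 5.95 for NCU10027, was 0.24 with WT + H2O2 at the floor. That call was lost in 11 of the 12 fits that left out a library. The fall of con-6 in WT was itself lost without replicate 2 or 3 of WT or of WT + H2O2. NCU05163 differed by 3.44 ± 0.53 (edgeR adjusted p = 0.00523), being 96.1 to 325 in WT + H2O2 and 407 to 629 in upf-1KO + H2O2.

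On the negative side the rule named NCU07129 (-2.40) and NCU09906 (-2.37). NCU09906, a gene without annotated role at the left end of I that overlaps another gene, had 46.3 to 85.4 normalised counts in WT, 294 to 335 in upf-1KO, 116 to 129 in WT + H2O2 and 62.5 to 142 in upf-1KO + H2O2, so the strains differed without H2O2 and overlapped with it. At the same end NCU09904, the non-coding RNA NCU14001 and NCU09906 are consecutive and all fell with H2O2 in upf-1KO, NCU09904 by 1.45 and NCU09906 by 1.49, and NCU14001, at 1 to 3 reads in upf-1KO + H2O2, at least 4.36-fold against the floor. The interaction on NCU07129 was lost without replicate 2 of WT or any replicate of upf-1KO.

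The counts of interaction calls depended on single libraries. Members called higher numbered 3 to 5 without replicate 2 or 3 of WT, any replicate of upf-1KO, replicate 2 or 3 of WT + H2O2, or replicate 1 or 3 of upf-1KO + H2O2. In those fits 1.16 to 2.63% of all genes tested were called higher, beside 3.4% in the full set. Members called lower numbered 3 to 6 without any 1 untreated library, 18 without replicate 1 of WT + H2O2 and 17 without replicate 2 of upf-1KO + H2O2. Of all genes tested, 0.955 to 1.17%, 5.65% and 4.28% were called lower in these fits, beside 2.56% in the full set. In every one of the 12 fits that left out a library, 3 of the 9 and 3 of the 11 kept their call: gh3-3, con-6 and NCU05163, and NCU09906, NCU09526 and NCU05899.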

How the data were processed

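Per the labels and the study's methods, the authors aligned reads with HISAT2 2.2.1 to assembly NC12 and counted them per gene with featureCounts (Subread 2.0.1). The deposited counts were analysed. The FPKM values deposited beside them by the authors were not used. Gene symbols came from a RefSeq table, which matched 10588 of 10685 gene IDs and all 311 members. Product names are those the study gives.

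edgeR 4.0.16 (R 4.3.3, limma 3.58.1) fitted 4 group means over 12 libraries with TMM factors of 0.481 to 1.53 and filterByExpr at its defaults, leaving 7878 genes. Levels are TMM-normalised counts, divided by gene length where given per kb. Calls needed a 2-fold change and an adjusted p under 0.05. The fit was tested on simulated data. DESeq2 1.42.0 was an alternative, among 25 planned and 2 added after seeing the data (protein-coding genes only, and a length trend removed by lowess with span 0.5). Genes were named by rule: up to 4 largest called changes per direction and comparison with a mean of at least 50 normalised counts and no overlap, 2 per direction for the interaction, the 5 highest levels, members with a symbol, the tested member nearest each end, and runs of 3 or more neighbours. Members and gene lists were chosen with earlier results of these data known. The lists cover conidiation, sexual development (in which 1 of 6 tested genes was higher in upf-1KO and none lower), mycelium, chromatin and telomeres. Same-numbered replicates were not paired (correlations of deviations -0.23 to 0.20).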

Additional observations from a re-analysis of the deposited data

Results flagged for a closer look

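Of the genes described, 10 were flagged here because the response to H2O2 differed between the strains by the interaction test. This was edgeR's quasi-likelihood test with Benjamini-Hochberg adjustment over all genes. The difference, upf-1KO minus WT on the log2 scale, was positive in 4 of them: gh3-3 4.71, con-6 4.07, NCU05163 3.44 and NCU17055 1.8. For gh3-3 and con-6 WT + H2O2 was at 3 reads or fewer in every library, and with that group at the floor of 3 counts per library the differences were 3.56 and 2.90. It was negative in 6: NCU09904 -2.55, NCU07129 -2.40, NCU09906 -2.37, NCU11292 -1.99, NCU09526 -1.42 and NCU07159 -1.37. Adjusted p-values of this test lay between 0.000193 (gh3-3) and 0.0388 (NCU11292).

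Of these, gh3-3, con-6, NCU05163, NCU09906 and NCU09526 kept the call whichever library was left out. The calls on the other 5 were lost without at least 1 of the untreated libraries, in the case of NCU11292 without any 1 of the 6. Under library totals alone the calls on NCU09526 (-0.90), NCU07159 (-0.86) and NCU11292 (-1.55) were lost.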

How the results depend on the processing

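Counts below are members higher and lower, and median differences are members minus other genes, on the log2 scale. Library totals alone gave 16 and 129 (H2O2 in WT), 14 and 77 (H2O2 in upf-1KO), 106 and 4 (strains with H2O2), 24 and 4 (interaction), and 3 lower without H2O2. At least 10 counts in every library gave 28 and 3 without H2O2 (median difference 0.155), 18 higher with H2O2, 24 and 23 lower with H2O2 in WT and upf-1KO (0.0183 in upf-1KO), and -0.0343 for the interaction. The 28 and 3 were 17.3% and 1.85% of members tested there, beside 6.83% and 1.5% of all genes. The 24 and 23 were 14.8% and 14.2%, beside 21.7% and 14.7% of all genes. A test against a 2-fold change gave 20 and 1 for the strains without H2O2 (8.37% and 0.418%), beside 2.93% and 0.52% of all genes. For the strains with H2O2 it gave 16 and 2 (6.69% and 0.837%), beside 2.26% and 0.609%. For H2O2 in WT it gave 27 and 17 (11.3% and 7.11%), beside 10.8% and 11.6%. For H2O2 in upf-1KO it gave 18 and 11 (7.53% and 4.6%), beside 6.82% and 5.51%. The interaction gave 3 and 0 (1.26% and 0%), beside 0.317% and 0.203%, and had 21 and 22 at an unadjusted p. Only the 2 groups compared gave 17 and 2 with H2O2, and median differences of 0.303 without H2O2 and 0.106 for H2O2 in upf-1KO. DESeq2 gave 8 lower without H2O2 (0.256), and no filter on low counts gave 0.256 there and 0.111 for H2O2 in upf-1KO. The 8 of DESeq2 were 2.73% of members tested there, beside 1.95% of all genes.

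Within 25 kb the counts were 22 and 2, 19 and 3, 14 and 11, 16 and 8, and 3 and 6, in the same order, with median differences of 0.687, 0.448, 0.309 and 0.216 and a read share of 0.261%. Within 50 kb the median differences were 0.446 and 0.302 for the strains and 0.138 for H2O2 in upf-1KO, with 27 and 22 called there, 24 lower in WT, 5 lower with H2O2 in the strains, and a read share of 0.662%. Within 100 kb they were 0.354 without H2O2 and a share of 3.18%. Leaving out overlapping genes gave 0.382, 0.314, 0.159 (H2O2 in upf-1KO), -0.00876 (interaction) and a share of 2.08%. Removing the length trend gave 0.289, 0.231 and -0.0127 (interaction) and turned the direction for H2O2 in WT (-0.139) and in upf-1KO (-0.111); the cause was not tested.

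Leaving out 1 library at a time gave median differences of 0.291 to 0.355 for the strains without H2O2, 0.179 to 0.264 with it, -0.0243 to 0.107 for H2O2 in upf-1KO (negative only without replicate 2 of upf-1KO + H2O2) and -0.159 to -0.0437 for the interaction. It gave 4 to 8 lower without H2O2, 8 without replicate 2 of upf-1KO + H2O2, and 3 to 12 higher and 3 to 18 lower for the interaction. Of all genes tested, 1.47 to 2.64%, 1.16 to 5.19% and 0.955 to 5.65% were called in these fits. A fit with a replicate block gave 48 and 5, 42 and 9, 43 and 37, 43 and 40, and 8 and 9. Of all genes it called 8% and 1.89%, 9.11% and 5.13%, 18.3% and 23.2%, 16.2% and 15.7%, and 2.17% and 1.87%. Because the numbers did not pair samples, this block is given here only. All other counts stayed within 1.5 times those reported. Of the 72 members that were not tested, 18 had no read and none exceeded 244 reads in a library, and low expression and depth cannot be told apart for them.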

Other observations

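Most subtelomeric genes that produce no protein gave almost no reads. Of the 17 non-coding members, 8 had any count, the highest was 23 reads in a library, and the 3 rRNA genes, which lie nearest the left edge of chromosome V, had none. The polyketide synthase gene pks-5 had no read in any library, and the xylanase-family gene gh10-4 stayed at 3.84 normalised counts or fewer.

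Several members with known roles were not called in any of the 4 comparisons of groups. They were his-6 (histidine synthesis), erg-3 (ergosterol synthesis), pmb (basic amino-acid permease), bek-2, nuo21.3c, cdc7, uvs-3 and gh10-3. Their log2 fold changes for upf-1KO against WT without H2O2 ran from -0.46 (pmb) to 1.07 (gh10-3). Under library totals alone every gene of this list except his-6 was called in at least 1 of the 4 comparisons. Examples are uvs-3, lower by 2.08 with H2O2 in WT, and gh10-3, higher by 2.22 in upf-1KO than in WT with H2O2. In all, 88 of the 239 tested members were called in none of the 4 comparisons and 151 in at least 1, 63.2% beside 58.4% of all genes tested.

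Medians of the log2 fold change with H2O2 are given by end, from 6 to 23 tested genes each. In WT they ran from -0.66 (right end of VII, 0 higher and 4 lower of 14) to 0.70 (left end of I, 2 higher and 0 lower of 12). Of all genes tested, 18.7% were higher and 23.1% lower with H2O2 in WT, and 17.4% and 15.2% in upf-1KO. In upf-1KO the left end of I had 2 higher and 5 lower, with a median of -0.15. The left end of VI had 0 higher and 5 lower of 20 in upf-1KO. No test of an end was made.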
